A study of Mus musculus with 8 samples.

Results

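Variant PRC1 subunits were followed as 10 genes that carry the complexes PRC1.1 (Pcgf1, Bcor, Bcorl1 and Kdm2b), PRC1.3/5 (Pcgf3 and Pcgf5) and PRC1.6 (Pcgf6 and L3mbtl2), or belong to all of them (Rybp and Yaf2). They were taken by gene symbol from a list, and all 10 were found among 23343 symbols, in 13 of 26099 deposited transcript entries. RNA came from testes of C57BL/6 mice at postnatal day 7, sorted as cKit+ or Thy1+ spermatogonia, with 2 libraries in each of 4 groups: cKit dKO, cKit control, Thy1 dKO and Thy1 control, where dKO stands for the genotype label PRC1dKO and control for PRC1ctrl. The labels give neither the deleted genes nor the Cre driver, do not say whether the controls carry a deletion too, and do not say whether replicates came from different animals. If they did not, p-values measure only the spread between these samples.

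Polycomb repressive complex 1 (PRC1) is an E3 ligase that places ubiquitin on histone H2A at repressed promoters, many of them of developmental regulators. Each PRC1 complex is built on RING1 or RNF2 (RING1B), the catalytic subunit, and on a PCGF protein, which gives the complex its name. Canonical complexes carry a CBX and a PHC protein and read the methylation left by PRC2, while variant complexes carry RYBP or its paralog YAF2 in place of CBX and do most of the H2A ubiquitination in mouse embryonic stem cells. PRC1.1 is brought to unmethylated CpG islands by KDM2B, and PRC1.6 is brought to germline genes by the DNA-binding partners MGA, MAX and E2F6.

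Total counts were 6763908 to 10976869 per library. Rnf2 stood at 134 and 141 CPM (counts scaled to library size by TMM) in cKit dKO, 146 and 125 CPM in cKit control, 128 and 126 CPM in Thy1 dKO, and 103 and 120.4 CPM in Thy1 control. Ring1 was at 12.01 CPM in cKit dKO replicate 1 and at 2.59 to 5.23 CPM in the other 7 libraries. Neither passed the test in dKO (quasi-likelihood test of edgeR, Benjamini-Hochberg adjusted p = 0.30 to 0.91 over both genes and populations). A deletion of part of a gene can leave its summed count as it was, and these levels are therefore no check of the genotype. Of the surface markers used for sorting, Kit stood at 1059 and 1012 CPM in cKit dKO, 1049 and 938 CPM in cKit control, and 281 to 317 CPM in the 4 Thy1 libraries, and Thy1 at 0 to 1.28 CPM in the 4 cKit libraries and 12.8 to 26.04 CPM in the Thy1 libraries. As for markers of germ cells, 16 genes summed to 489 and 656 CPM (relative to the library total) in cKit dKO against 2195 and 1648 in cKit control, and to 2297 and 2050 in Thy1 dKO against 2462 and 2705 in Thy1 control. Only Nanos3, in cKit dKO replicate 1, was at 0 among them. In bulk RNA of sorted cells, fewer cells of a type and less RNA per cell cannot be told apart.

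Levels of different genes were compared by the deposited RPKM, which scales reads to transcript length and library size, summed over the entries of a symbol. Bcor led in cKit dKO with 10.55 ± 1.68 RPKM (SD, n = 2), ahead of Pcgf3 (5.70 ± 0.45) and Yaf2 (5.56 ± 0.06), which overlapped, and Rybp (3.70 ± 0.25). Pcgf5 was the fifth there with 2.89 ± 0.58 RPKM, overlapping Pcgf1 (2.67 ± 0.05), and L3mbtl2 (1.12 ± 0.10) and Kdm2b (0.853 ± 0.22) came last. In Thy1 dKO Pcgf5 (8.09 ± 0.96 RPKM) and Bcor (7.598 ± 0.01) overlapped at the top, ahead of Pcgf3 (6.31 ± 0.17) and Yaf2 (5.14 ± 0.13). The other 6 overlapped from neighbour to neighbour between Rybp (3.09 ± 0.12) and Kdm2b (1.99 ± 0.09).

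The order at the top was another in the control groups. Pcgf5 had the highest level of the 10 in cKit control, with 14.9 ± 3.54 RPKM (SD, n = 2), followed by Bcor (8.29 ± 1.55), Pcgf3 (7.72 ± 0.69), Yaf2 (5.495 ± 1.17), Pcgf1 (4.30 ± 0.14), L3mbtl2 (3.80 ± 0.12), Rybp (3.63 ± 0.12), Bcorl1 (3.499 ± 0.26), Pcgf6 (2.85 ± 0.17) and Kdm2b (1.86 ± 0.58). Of these neighbours Bcor and Pcgf3, and Rybp and Bcorl1, overlapped between their libraries. In Thy1 control Pcgf5 also led, with 11.6 ± 0.07 RPKM (SD, n = 2), ahead of Pcgf3 (6.09 ± 0.11), and the run Yaf2, Bcor, Pcgf6, L3mbtl2 and Pcgf1 overlapped from neighbour to neighbour between 4.19 and 3.39 RPKM. Rybp (2.88 ± 0.05), Bcorl1 (2.49 ± 0.25) and Kdm2b (1.69 ± 0.08) came last there. The place of Bcor in the controls rests on the sum over its entries. With its largest entry alone Bcor had 6.98 RPKM in cKit control, below Pcgf3, and 3.28 RPKM in Thy1 control, below Pcgf1.

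**Figure D1:**
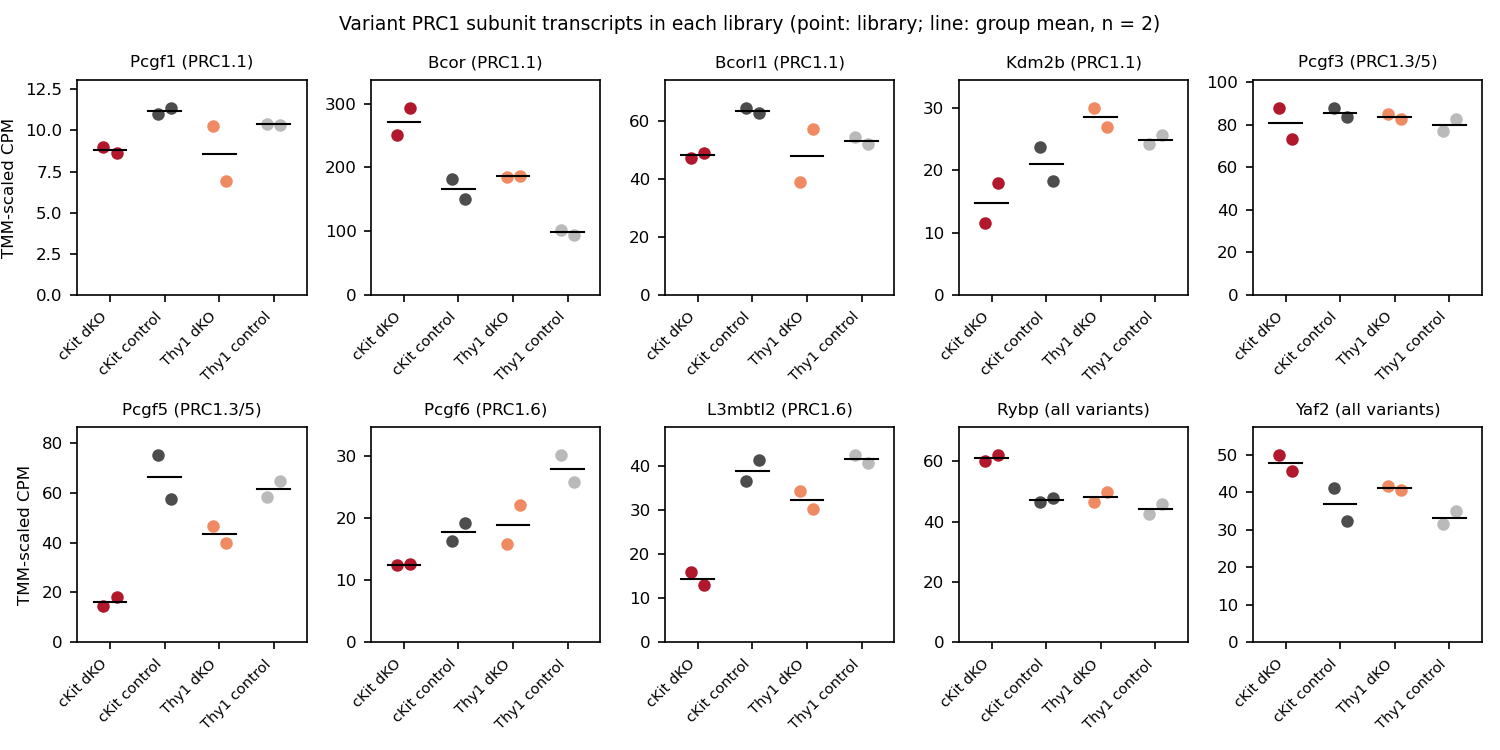
TMM-scaled CPM of each of the 10 genes (vertical axes from 0, each with its own range) in the 4 groups, with 1 point per library and a line at the mean of 2. Bcor is higher in both dKO groups than in their controls, Pcgf5 drops to 14.6 and 18.2 CPM and L3mbtl2 to 15.8 and 13.0 CPM in cKit dKO, and Pcgf3 stays between 73.4 and 87.7 CPM in every library.

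Among the PRC1.1 genes Bcor, the corepressor scaffold of the complex, rose in the dKO libraries of both populations. It stood at 251 and 293 CPM in cKit dKO, against 182 and 151 CPM in cKit control, and at 185 and 187 CPM in Thy1 dKO, against 102 and 94.6 CPM in Thy1 control. Both dKO libraries were above both controls in each population. The log2 fold change was 0.71 ± 0.12 (SE) in cKit (edgeR adjusted p = 6.9e-04) and 0.92 ± 0.13 in Thy1 (edgeR adjusted p = 0.0055). Scaling on germ cell markers shifts all genes together, to a median log2 change of 1.64 in cKit and 0.28 in Thy1. Under it Bcor was at 2.32 in cKit and 1.17 in Thy1, which is 0.68 and 0.885 relative to those medians, against 0.675 and 0.885 with TMM. Since the shift is about equal for all genes, values relative to the median could hardly differ between scalings. They are no check here or below. The direction was the same under each scaling that was run, which for germ cell scaling was fixed by its upward shift. The Thy1 call was lost without any one of the 4 Thy1 libraries (0.86 to 0.97, edgeR adjusted p = 0.067 to 0.11). In limma on log2(RPKM + 0.1) neither change passed (0.35 in cKit, adjusted p = 0.20, and 0.85 in Thy1, adjusted p = 0.23), on a scale whose median over all genes was -0.24 in cKit.

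The deposited table lists Bcor (mm10 chromosome X, minus strand) as 2 entries that end at the same base and start 79802 bases apart. The upstream entry spans 12036738 to 12160355 and the downstream one 12036738 to 12080553. The upstream entry was listed at 0 in all 4 dKO libraries, against 323 and 151 counts in cKit control and 165 and 143 counts in Thy1 control. The downstream entry had 1567 and 1868 counts in cKit dKO against 1775 and 1030 in cKit control, and 1639 and 1375 counts in Thy1 dKO against 613 and 663 in Thy1 control. As a share of the Bcor counts, the 0 counts of the upstream entry allow up to 0.161% to 0.218% in the dKO libraries (3 counts of the total, counting error only). The entry took 15.4% (95% Wilson interval 13.9 to 17.0) and 12.8% (11.0 to 14.8) in cKit control, and 21.2% (18.5 to 24.2) and 17.7% (15.3 to 20.5) in Thy1 control.

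Of 905 entries that belong to symbols with several entries and had at least 100 counts in each of the 4 control libraries, that of Bcor was the 1 listed at 0 in all 4 dKO libraries. Of 789 with at least 100 counts in each dKO library, 0 were listed at 0 in all controls. With a minimum of 50 or of 20 counts there were 2 (of 1179 and 1529), the other one an entry of Nrep. In the reverse direction there were 0 of 1082 at a minimum of 50 and 2 of 1419 at a minimum of 20, as many as in the direction of Bcor. The pattern was noticed in these data and the minimum was set afterwards. Within 1 population such zeros were more frequent. In cKit, 11 of 1108 entries counted in both controls were at 0 in both dKO libraries, and 2 of 934 counted in both dKO libraries were at 0 in both controls. In Thy1 these numbers were 6 of 1076 and 5 of 1091. The downstream entry of Bcor lies within the span of the upstream one, and how the counting assigned shared reads is not given in the sources used here. In each library 14.8% to 19.97% of the entries with at least 10 counts in such symbols had exactly the count of another entry of the same symbol. A 0 may therefore be an assignment and not an absence of the transcript, and its part in the rise of the summed counts was not tested. With the downstream entry alone, the rise of Bcor was 0.93 in cKit and 1.23 in Thy1 on the log2 scale, both past the test. An assignment of shared reads to this entry in dKO only would by itself raise these values. They are therefore no check of the rise in the sum.

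No window was available for the downstream start of Bcor, whose entry had most of the counts in every library. The window around the upstream start is shown because the counts of that entry differ between the genotypes. It runs from 250 bases before to 50 bases after the start (RefSeq, GRCm38.p6, minus strand, chrX:12160306-12160605), and is written 5′ to 3′ with each CG dinucleotide, the step that KDM2B binds when unmethylated, in capitals.
Bcor, upstream start: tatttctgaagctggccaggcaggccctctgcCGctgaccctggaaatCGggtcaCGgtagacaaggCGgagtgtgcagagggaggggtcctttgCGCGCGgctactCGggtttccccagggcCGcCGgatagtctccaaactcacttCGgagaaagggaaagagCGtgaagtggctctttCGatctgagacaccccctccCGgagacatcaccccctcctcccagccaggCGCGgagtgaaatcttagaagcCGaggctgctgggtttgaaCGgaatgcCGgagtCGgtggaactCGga
It holds 21 CG dinucleotides, against a median of 7 over 32851 windows of the same length, of which 75.2% hold fewer.

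Bcorl1, the paralog of Bcor on the same chromosome (48341358 to 48406728, plus strand), was not called in either population. It had 47.4 and 49.1 CPM in cKit dKO against 64.5 and 62.8 in cKit control, and 39.0 and 57.3 CPM in Thy1 dKO against 54.4 and 52.1 in Thy1 control. The groups did not overlap in cKit and overlapped in Thy1. The log2 fold changes of -0.40 ± 0.17 and -0.15 ± 0.17 did not pass (edgeR adjusted p = 0.092 and 0.75), and both were above 0 with scaling on germ cell markers (1.21 and 0.12, or -0.43 and -0.16 relative to the median of all genes). Relative to library totals the cKit change was -0.54 and passed (edgeR adjusted p = 0.031). The ratio of the paralogs within a library does not depend on library scaling. Bcor over Bcorl1, in RPKM, was 4.72 and 5.35 in cKit dKO against 2.55 and 2.17 in cKit control, and 4.22 and 2.91 in Thy1 dKO against 1.72 and 1.64 in Thy1 control. Pcgf1, which defines PRC1.1 (chromosome 6, 83078390 to 83080855, plus strand), had 8.97 and 8.63 CPM in cKit dKO against 11.0 and 11.4 in cKit control, and 10.2 and 6.94 CPM in Thy1 dKO against 10.39 and 10.33 in Thy1 control. The dKO libraries were below the controls in both populations, by little in Thy1 replicate 1. Its log2 changes had 95% intervals of -0.98 to 0.29 in cKit and -0.89 to 0.37 in Thy1, and neither passed (edgeR adjusted p = 0.42 and 0.75).

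Kdm2b, the CpG-binding subunit that recruits PRC1.1, had 11.5 and 17.9 CPM in cKit dKO against 23.7 and 18.2 in cKit control, and 29.96 and 26.95 CPM in Thy1 dKO against 24.2 and 25.6 in Thy1 control. The summed level was below control in cKit and above it in Thy1, and neither change passed (-0.52 ± 0.24 and 0.19 ± 0.23, edgeR adjusted p = 0.12 and 0.76). The cKit change was -0.84 and passed (edgeR adjusted p = 0.028) with cKit dKO replicate 2 left out, and -0.19 with replicate 1 left out. The gene (chromosome 5, minus strand) has 3 deposited entries, 1 that starts inside the gene (122870675 to 122900350) and 2 that start up to 88742 bases upstream of it. The mouse gene is known to make a shorter protein without the demethylase domain from an internal start.

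The internal entry had 31 and 11 counts in cKit dKO, against 238 and 75 in cKit control, and 132 and 128 counts in Thy1 dKO, against 86 and 92 in Thy1 control. Its share of the Kdm2b counts was 43.1% (95% Wilson interval 32.3 to 54.6) and 9.65% (5.47 to 16.5) in cKit dKO against 86.9% (82.4 to 90.4) and 52.4% (44.3 to 60.5) in cKit control. The share was lower in both cKit dKO libraries than in both controls, although the replicates of each group lie further apart than their counting intervals. In Thy1 the share was 49.6% (43.7 to 55.6) and 64.6% (57.8 to 71.0) in dKO against 46.7% (39.7 to 53.9) and 42.2% (35.8 to 48.8) in control. The upstream entry that starts furthest from the internal one (122870675 to 122989092) had 41 and 103 counts in cKit dKO against 18 and 34 in cKit control, while the other upstream entry was at 0 in both cKit dKO libraries and had the same 18 and 34 counts in cKit control. The 2 upstream entries had the same count as each other in 5 of the 8 libraries, so they are not compared with each other. Equal counts may be the same reads listed under both entries. The counts were equal in both cKit control libraries, both Thy1 dKO libraries and Thy1 control replicate 2. The summed Kdm2b level and the shares would then count such reads 2 times there but not in cKit dKO. Whether this was so was not tested. The internal entry lies within the span of the upstream ones, so its own counts can also depend on how shared reads were assigned. When Kdm2b was represented by its internal entry, the entry with the most counts, the cKit change was -2.18 on the log2 scale and passed the test. The summed change of -0.52 did not pass, and the part of read assignment in this gap was not tested. In the annotation the exons of Kdm2b share 627 bases with Rnf34 on the opposite strand, which had 184 and 140 counts in cKit dKO against 398 and 245 in cKit control. The libraries were made from double-stranded cDNA, and the strand setting of the counting is not given. Reads of the pair in those bases cannot be told apart.

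**Figure D2:**
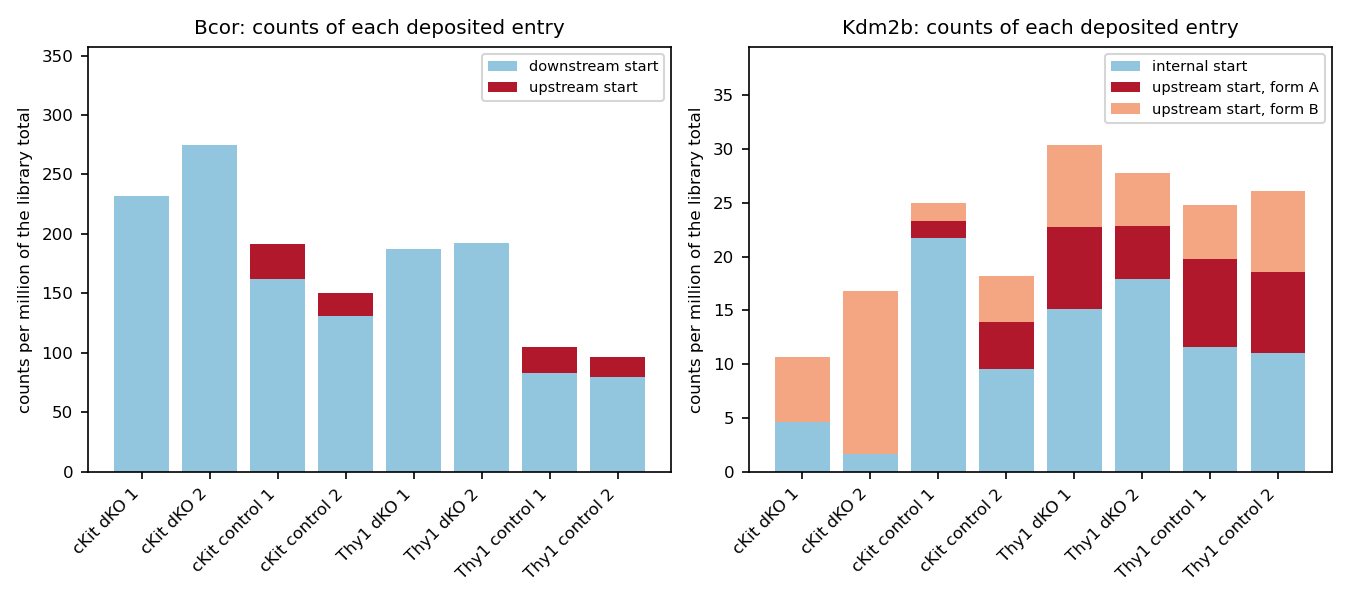
Stacked bars of the deposited entries of Bcor (left) and Kdm2b (right) in the 8 libraries, in CPM of the library total (axes from 0). The upstream Bcor entry appears in 0 of the 4 dKO libraries and in all 4 control libraries, and the internal Kdm2b entry is smallest in the 2 cKit dKO libraries, at 31 and 11 counts.

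The windows at the internal start of Kdm2b and at its furthest upstream start are shown because the share of the internal entry was lower in cKit dKO (RefSeq, GRCm38.p6, minus strand, chr5:122900301-122900600 and chr5:122989050-122989349, CG in capitals).
Kdm2b, internal start: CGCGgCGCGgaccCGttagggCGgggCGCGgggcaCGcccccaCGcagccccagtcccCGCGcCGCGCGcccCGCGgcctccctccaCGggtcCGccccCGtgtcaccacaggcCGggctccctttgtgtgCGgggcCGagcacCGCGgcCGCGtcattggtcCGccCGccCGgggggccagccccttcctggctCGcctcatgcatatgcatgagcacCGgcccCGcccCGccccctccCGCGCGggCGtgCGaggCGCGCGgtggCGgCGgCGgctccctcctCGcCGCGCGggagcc
Kdm2b, upstream start: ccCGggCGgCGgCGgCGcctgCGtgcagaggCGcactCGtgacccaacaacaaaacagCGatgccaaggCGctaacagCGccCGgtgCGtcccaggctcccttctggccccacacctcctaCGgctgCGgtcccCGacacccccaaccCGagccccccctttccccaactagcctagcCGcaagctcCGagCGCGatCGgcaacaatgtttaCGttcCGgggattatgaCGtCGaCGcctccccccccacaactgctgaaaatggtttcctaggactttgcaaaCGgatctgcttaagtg
The internal window holds 49 CG dinucleotides, more than 99.0% of all windows, and the upstream one 28, more than 85.8%. Windows were available for 7 members (Pcgf3, Pcgf5, Pcgf6, Bcor, Bcorl1, Kdm2b and L3mbtl2; 13 windows), and 10 of the 13 held at least 20 CG dinucleotides, against 26.5% of all windows. The E-box CACGTG, a palindrome bound by MAX, was in 1 of the 13 (Bcorl1), against 7.15% of all windows, and the E2F motif GCGGGAA, searched on both strands, was in 1 (an alternative start of Pcgf5), against 4.6%. Several windows belong to the same gene and partly overlap.

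Of the PRC1.3/5 genes, Pcgf5 fell in cKit dKO. The gene lies on chromosome 19 (36379067 to 36456204, plus strand). It had 14.6 and 18.2 CPM in cKit dKO, against 75.0 and 57.7 CPM in cKit control, and 46.7 and 40.02 CPM in Thy1 dKO, against 58.1 and 64.6 CPM in Thy1 control. Both dKO libraries lay below both controls in each population. The log2 fold change in cKit was -2.02 ± 0.19, or 4.06-fold lower (edgeR adjusted p = 5.2e-06), and it passed without any one of the 8 libraries (-2.16 to -1.82). In Thy1 it was -0.498 ± 0.17 and did not pass (edgeR adjusted p = 0.19, 95% interval -0.86 to -0.13), and it passed when only the 4 Thy1 libraries were fitted (-0.52, edgeR adjusted p = 0.032). Scaling on germ cell markers left Pcgf5 at -0.41 and not past the test (edgeR adjusted p = 0.17). Relative to the median of all genes it was -2.05 under both scalings, which the common shift of all genes fixes. In the same comparison 12 of the 16 germ cell markers fell (median log2 -1.58), and their part in the fall of Pcgf5 and L3mbtl2 was not tested.

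Pcgf3, which pairs with the same partners as Pcgf5 and can stand in for it in mouse embryonic stem cells, was not called in either population (chromosome 5, 108461332 to 108503099, plus strand). It had 87.7 and 73.4 CPM in cKit dKO against 87.6 and 83.5 in cKit control, and 84.8 and 82.6 CPM in Thy1 dKO against 76.8 and 82.5 in Thy1 control. The log2 changes were -0.09 ± 0.13 and 0.07 ± 0.13, with 95% intervals of -0.37 to 0.19 and -0.21 to 0.35 (edgeR adjusted p = 0.66 and 0.86), and the cKit change was 1.55 with scaling on germ cell markers, or -0.097 relative to the median of all genes. Pcgf5 over Pcgf3 within a library, in RPKM, was 0.411 and 0.613 in cKit dKO against 2.12 and 1.71 in cKit control, and 1.36 and 1.198 in Thy1 dKO against 1.87 and 1.93 in Thy1 control. Pcgf5 was the less abundant of the pair in the 2 cKit dKO libraries and the more abundant in the other 6.

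**Figure D3:**
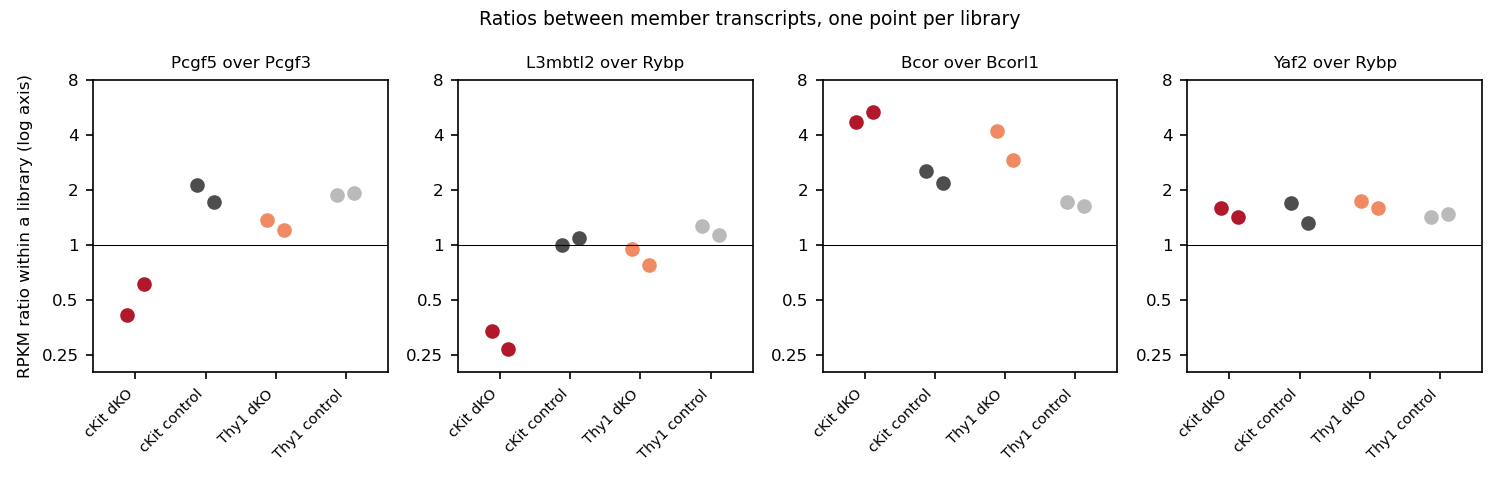
RPKM ratios between pairs of members within each of the 8 libraries, on a log2-spaced axis with a line at 1. Pcgf5 over Pcgf3 is below 1 in the 2 cKit dKO libraries and above 1 in the other 6, L3mbtl2 over Rybp is 0.338 and 0.27 in cKit dKO, Bcor over Bcorl1 is higher in each dKO group than in its control, and Yaf2 over Rybp stays between 1.31 and 1.74.

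Of the PRC1.6 genes, L3mbtl2, an MBT-domain protein specific to this complex, fell in cKit dKO (chromosome 15, 81663936 to 81688305, plus strand). It had 15.8 and 13.0 CPM in cKit dKO, against 36.5 and 41.2 CPM in cKit control, and 34.2 and 30.2 CPM in Thy1 dKO, against 42.3 and 40.6 CPM in Thy1 control. The dKO libraries lay below the controls in each population. The log2 fold change was -1.43 ± 0.19 in cKit (edgeR adjusted p = 7.4e-05), where it passed without any one library, and -0.36 ± 0.17 in Thy1 (edgeR adjusted p = 0.37). With scaling on germ cell markers the cKit change was 0.19, above 0. Relative to the median of all genes it was -1.46 under both scalings, again fixed by the common shift. The annotation places 1023 exonic bases of Chadl on the opposite strand within L3mbtl2 exons, and Chadl had 1 to 8 counts per library.

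Pcgf6, which defines PRC1.6 (chromosome 19, 47033619 to 47050845, minus strand), had 12.49 and 12.55 CPM in cKit dKO against 16.4 and 19.3 in cKit control, and 15.9 and 22.1 CPM in Thy1 dKO against 30.1 and 25.8 in Thy1 control. The groups did not overlap in either population. The log2 changes of -0.505 ± 0.24 and -0.56 ± 0.22 did not pass (edgeR adjusted p = 0.13 and 0.26), and the cKit one was above 0 with scaling on germ cell markers (1.09, or -0.55 relative to the median of all genes). L3mbtl2 over Rybp, in RPKM, was 0.338 and 0.27 in cKit dKO against 1.001 and 1.096 in cKit control, and 0.944 and 0.779 in Thy1 dKO against 1.27 and 1.13 in Thy1 control.

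The start windows of Pcgf5 and L3mbtl2 are shown because these members fell together in cKit dKO (RefSeq, GRCm38.p6, plus strand, chr19:36378817-36379116 and chr15:81663639-81663938, CG in capitals).
Pcgf5: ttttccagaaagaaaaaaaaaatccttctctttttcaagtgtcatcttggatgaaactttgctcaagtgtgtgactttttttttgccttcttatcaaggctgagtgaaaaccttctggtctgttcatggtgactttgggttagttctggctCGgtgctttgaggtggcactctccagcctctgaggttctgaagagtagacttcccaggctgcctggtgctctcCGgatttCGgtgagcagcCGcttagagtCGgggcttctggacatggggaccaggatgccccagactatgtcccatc
L3mbtl2: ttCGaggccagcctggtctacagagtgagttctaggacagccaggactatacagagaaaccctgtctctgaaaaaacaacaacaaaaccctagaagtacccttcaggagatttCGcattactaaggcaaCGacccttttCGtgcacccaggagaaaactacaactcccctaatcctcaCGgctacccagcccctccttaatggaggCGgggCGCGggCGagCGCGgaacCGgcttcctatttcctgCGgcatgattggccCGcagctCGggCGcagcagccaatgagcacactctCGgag
The Pcgf5 window, at the start of the deposited entry, holds 5 CG dinucleotides and the L3mbtl2 window 17, against the median of 7. The annotation also gives Pcgf5 a start 30738 bases upstream, whose window holds 34. Neither printed window holds the E-box or the E2F motif, which says only that these letters are not in these windows.

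Rybp and Yaf2, the paralogs that occupy the CBX position in every variant complex and stimulate H2A ubiquitination, were not called in either population. Rybp (chromosome 6, 100228565 to 100287358, minus strand) had 60.03 and 61.95 CPM in cKit dKO against 46.5 and 47.98 in cKit control, and 46.4 and 49.7 CPM in Thy1 dKO against 42.6 and 45.9 in Thy1 control. Yaf2 (chromosome 15, 93283833 to 93336935, minus strand) had 49.8 and 45.5 CPM in cKit dKO against 41.1 and 32.3 in cKit control, and 41.6 and 40.6 CPM in Thy1 dKO against 31.6 and 34.9 in Thy1 control. The dKO libraries of both genes were above the controls in both populations, and the log2 changes were 0.37 ± 0.14 and 0.37 ± 0.17 in cKit and 0.12 ± 0.14 and 0.31 ± 0.17 in Thy1. None passed (edgeR adjusted p = 0.063 and 0.11 in cKit, 0.77 and 0.45 in Thy1), and Rybp passed in cKit with DESeq2 size factors (0.42, edgeR adjusted p = 0.038). On the log2(RPKM + 0.1) scale the cKit changes were 0.02 for Rybp and 0.03 for Yaf2, and 0.27 and 0.28 above the median of all genes. Yaf2 over Rybp, in RPKM, lay between 1.31 and 1.74 in all 8 libraries, with groups that overlapped in cKit.

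Across the set, 3 of 10 members were called in cKit dKO against cKit control, 1 higher and 2 lower, where 28.6% of the 14907 genes tested were called, 13.2% higher and 15.4% lower. This share is near that of all genes. Their median log2 change was -0.37, against 0.03 over all genes tested. In Thy1 dKO against Thy1 control 1 of 10 was called, where 0.624% of all genes were called and 0.362% were called higher, and the medians were -0.04 and 0.03. The groups of 9 members did not overlap in each of the populations, where this held for 60.7% of all genes in cKit and 51.3% in Thy1. With limma on the RPKM values 7 members were called in cKit, all lower, where 19.8% of all 18777 genes in that fit were called lower and their median was -0.24. In Thy1 limma called 0 of them, where edgeR had 3 with an unadjusted p under 0.05. Over all genes tested in Thy1, 2059 of 14907 had such a p-value in edgeR.

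**Figure D4:**
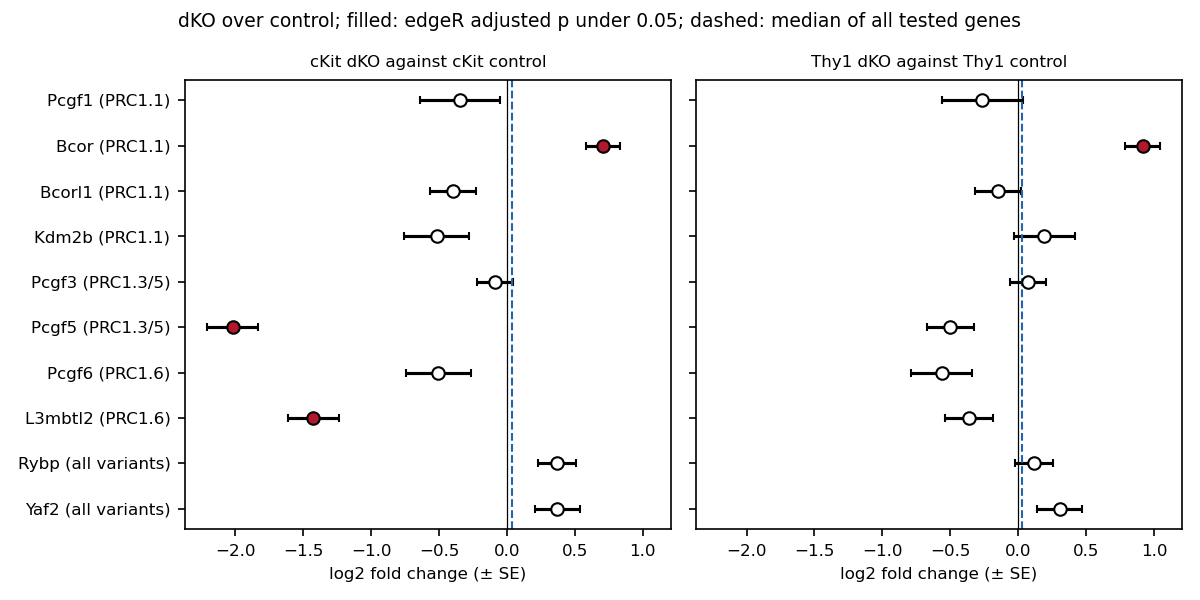
log2 fold change of dKO over control (horizontal axis, bars are the SE of the fit) for each member, in cKit on the left and Thy1 on the right, with filled points for an edgeR adjusted p under 0.05 and a dashed line at the median of all tested genes (0.03 in both). Pcgf5 at -2.02 and L3mbtl2 at -1.43 stand lowest in cKit, and Bcor is the filled point to the right of 0 in both panels.

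The dKO effect itself differed between the populations for Pcgf5 and L3mbtl2. The effect in cKit minus that in Thy1 was -1.52 ± 0.25 for Pcgf5 (edgeR adjusted p = 0.0034) and -1.06 ± 0.26 for L3mbtl2 (edgeR adjusted p = 0.024). These were 2 of 10 members, where 5.92% of all genes were called and 4.06% were lower. That of Pcgf5 passed without any one library, and that of L3mbtl2 was lost without 7 of the 8 (edgeR adjusted p = 0.051 to 0.15), while its value stayed between -1.15 and -0.86. The difference was -0.21 ± 0.18 for Bcor (edgeR adjusted p = 0.56) and -0.71 ± 0.33 for Kdm2b (edgeR adjusted p = 0.23), neither of which passed.

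Between the control populations Bcor was the 1 member that passed the test. It had 182 and 151 CPM in cKit control against 102 and 94.6 CPM in Thy1 control, a log2 change of 0.76 ± 0.13 (edgeR adjusted p = 4.8e-04), and 1 of 10 members was called where 19.7% of all genes were called and 9.46% were called higher. Pcgf6 was lower in each cKit control library than in each Thy1 control library (-0.65 ± 0.22) and missed the threshold (edgeR adjusted p = 0.052). It passed with DESeq2 size factors, with no filter on low counts and with only the 4 libraries fitted. The other 8 had changes of -0.24 to 0.26 and did not pass. The sorted populations also differed in somatic markers. In cKit control 7 of 7 Leydig and 5 of 5 mast cell markers were called higher than in Thy1 control. Lower there were 10 of 10 peritubular and stromal and 7 of 8 macrophage markers, where 10.3% of all genes were lower. Between the dKO populations the same lists moved the same way. Their part in the differences of the members was not tested. In dKO cells 4 of 10 were called between cKit and Thy1, where 34.8% of all genes were. Bcor was higher in cKit dKO (0.55 ± 0.12, edgeR adjusted p = 0.0032), while Pcgf5 (-1.41 ± 0.19), L3mbtl2 (-1.16 ± 0.19) and Kdm2b (-0.95 ± 0.24) were lower (edgeR adjusted p = 5.2e-05, 2.7e-04 and 0.006). With scaling on germ cell markers the values of these 3 were 0.39, 0.67 and 0.82, where the median of all genes was 1.73. Relative to that median they were -1.34, -1.06 and -0.91, against -1.32, -1.08 and -0.87 with TMM, a likeness that the common shift fixes. The Kdm2b value rests on its summed entries, with upstream counts that may be listed 2 times in Thy1 dKO but not in cKit dKO. With TMM it was -0.87 without Thy1 dKO replicate 1 and -0.588 without cKit dKO replicate 1.

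Of 18 other partners of the variant complexes, 7 fell in cKit dKO, 0 rose and 11 did not pass (median log2 -0.28). They were Wdr5, a WD-repeat adaptor found in PRC1.6 (-0.88 ± 0.13), Usp7, the deubiquitinase of PRC1.1 (-0.80 ± 0.12), the deacetylases Hdac1 (-0.698 ± 0.14) and Hdac2 (-0.57 ± 0.12), the heterochromatin protein gene Cbx3 (-0.58 ± 0.21), Mga, the DNA-binding scaffold of PRC1.6 (-0.41 ± 0.10), and the casein kinase subunit Csnk2a2 of PRC1.3/5 (-0.39 ± 0.13). Their edgeR adjusted p ran from 1.9e-04 to 0.049, and 15.4% of all genes were called lower. In Thy1 dKO 0 of the 18 passed in edgeR, in DESeq2 or in limma, and 4 had an unadjusted p under 0.05 in edgeR. Over all genes tested in Thy1, 2059 of 14907 had such a p-value. With DESeq2, 5 fell in cKit dKO, where 12.9% of all genes were called lower. With scaling on germ cell markers all 18 were called higher there, as were 82.1% of all genes. E2f6, the repressor that guides PRC1.6 to DNA, had log2 fold changes of -0.26 ± 0.14 in cKit and -0.49 ± 0.14 in Thy1 and did not pass in either (edgeR adjusted p = 0.20 and 0.11). Of 9 tested canonical PRC1 subunits 1 rose and 3 fell in cKit dKO, where 13.2% of all genes were called higher and 15.4% lower. In Thy1 dKO 0 passed in edgeR (3 with an unadjusted p under 0.05), 0 in limma and 1 in DESeq2.

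Germline genes reported as bound by PRC1.6 in mouse embryonic stem cells were lower in the same cKit dKO libraries. Of the 16 on that list 15 were matched by symbol in the files and tested, and these 15 fell (median log2 -1.51), where 15.4% of all genes were called lower. In Thy1 0 passed in edgeR (3 with an unadjusted p under 0.05, median -0.13), 0 in limma and 1 in DESeq2. Over all genes tested in Thy1, 2059 of 14907 had such a p-value in edgeR. The list shares Ddx4, Dazl, Mael, Stk31, Taf7l, Tdrkh, Tdrd1 and Tex101 with the germ cell markers. Scaling on those markers holds their summed level equal between libraries, so it cannot test this list. Under it 1 was lower and 2 higher in cKit dKO, where 82.1% of all genes were called higher. The list summed to 569 and 767 CPM in cKit dKO against 2369 and 1749 in cKit control. Somatic markers moved the other way in these libraries. Of the tested markers 6 of 13 Sertoli, 7 of 10 peritubular and stromal and 3 of 7 endothelial genes rose. Of the Leydig genes 5 of 7 rose and 1 was lower. Over all genes 13.2% were called higher and 15.4% lower. Sertoli markers summed to 1364 and 1405 CPM in cKit dKO against 1035 and 1040 in cKit control, peritubular and stromal markers to 5736 and 4659 against 3372 and 3106, and endothelial markers to 367 and 389.5 against 213 and 199.9. Leydig markers summed to 14228 and 16899 CPM in cKit dKO against 11615 and 13220 in cKit control. Most of the Sertoli sum in cKit dKO came from Clu (584 and 642 CPM with TMM) and Gata4 (477 and 484). Fshr, Cldn11 and Amh, on the same list, stayed at 0.94 to 8.0 CPM there. None of these somatic markers was at 0 in any library. In Thy1 dKO 1 Sertoli, 1 endothelial and 2 Leydig markers rose, where 0.362% of all genes were called higher. Leydig sums were 3803 and 4315 CPM in Thy1 dKO against 2613 and 3228 in Thy1 control. Of 8 tested macrophage markers 0 passed in edgeR in either population (1 with an unadjusted p under 0.05 in cKit, 0 in Thy1). This rests on single libraries in cKit: 5 rose without cKit dKO replicate 1 (median log2 1.17), 1 fell without cKit dKO replicate 2 (median -0.92), and 1 rose without cKit control replicate 2 (median 1.04), while without cKit control replicate 1 the median was -0.19 and 0 passed. Macrophage markers summed to 100.4 and 419.5 CPM in cKit dKO against 132 and 307 in cKit control. Of 5 tested mast cell markers 2 rose in cKit dKO, while Fcer1a was at 0 in 7 of the 8 libraries. The part of any of these cells in the changes of the members was not tested.

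The genes whose log2 CPM followed each called member most closely over the 8 libraries, among 10441 with a mean log2 CPM of at least 3, were Enpp2, Pdlim4 and Inf2 for Bcor (Pearson r = 0.970 to 0.977), Rpa2, Espl1 and Ddx10 for Pcgf5 (0.995 to 0.997), and Shroom3, Zfp597 and Hist1h1a for L3mbtl2 (0.988 to 0.996). These are descriptions over libraries that fall into 4 groups of 2. Among the members, L3mbtl2 and Rybp ran most opposite (r = -0.97).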

How the data were processed

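The labels' protocols name a Qiagen RNeasy micro kit for total RNA, NuGEN Ovation amplification into double-stranded cDNA and Nextera XT libraries. Alignment used STAR 2.4.2a and mm10, per the submitters' processing notes; the counting tool and its strand setting are not given in the sources used here. The deposited values are whole-number counts per RefSeq entry, not normalized, and RPKM values that the authors scaled to transcript length and library size, per the file headers.

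Counts were summed per symbol. Tests used edgeR 4.0.16 in R 4.3.3: filterByExpr (14907 genes kept, all 10 members among them), TMM, 1 mean per group over all 8 libraries (4 residual df), and the two-sided glmQLFit and glmQLFTest with Benjamini-Hochberg adjustment at 0.05. SEs are the absolute log2 change over the square root of F. Pooling all groups assumes a like spread, although replicates spread more in cKit. Intervals and floors cover counting error only, since no molecular identifiers are described. On simulated data with 4-fold changes, 93 of 100 changed genes were called in cKit and 94 of 100 in Thy1. Every gene and library was drawn there with 1 common dispersion (0.0222). The simulation therefore does not carry the wider spread of the cKit replicates or of single genes. The design's alternatives used limma 3.58.1 on RPKM and DESeq2 1.42.0, other scalings and filters, and each library left out. Every member is named, other pathway genes only where they passed in dKO against control (Ring1 and Rnf2 always). E2f6, the list totals and the deposited entries were described after their values were seen. Start windows come from RefSeq (GRCm38.p6). Replicates of a group differed by more than counting noise (chi-square over df of 4.6 to 14.4). The members and lists were chosen with earlier results of these data known.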

Additional observations from a re-analysis of the deposited data

Results flagged for a closer look

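The dKO effect differed between the populations for 2 members by a test of the difference itself. For Pcgf5 the effect in cKit minus that in Thy1 was -1.52 on the log2 scale (edgeR adjusted p = 0.0034), with effects of -2.02 in cKit and -0.498 in Thy1. For L3mbtl2 it was -1.06 (edgeR adjusted p = 0.024), with effects of -1.43 in cKit and -0.36 in Thy1. That of L3mbtl2 is less firm. It did not pass with the largest entry per symbol (-1.07, edgeR adjusted p = 0.0532) or in limma with a pseudocount of 1 (-0.895, limma adjusted p = 0.0501). Its call also depended on single libraries, as given above. In each population both dKO libraries lay below both controls for each gene. With scaling on germ cell markers the differences were -0.16 and 0.31, neither past the test, where the median of all genes was 1.34 and 63.0% were called higher. Relative to that median they were -1.49 for Pcgf5 and -1.03 for L3mbtl2, against -1.50 and -1.04 with TMM. Because the scaling shifts all genes about equally, these pairs could hardly differ and are no check.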

How the results depend on the processing

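Of the 10 members, 3 were called in cKit dKO against cKit control and 1 in Thy1 dKO against Thy1 control. Between the control populations 1 was called, between the dKO populations 4, and for the difference of the dKO effects 2. Of all genes 28.6%, 0.624%, 19.7%, 34.8% and 5.92% were called, in the same order. Scaling on germ cell markers shifted the median of all genes to 1.64 in cKit, 0.28 in Thy1 and 0.458 between controls. It was 1.73 between dKO populations and 1.34 for the difference. With this scaling the member counts were 8 (cKit dKO), 2 (controls), 9 (dKO populations) and 7 (difference), all higher. Of all genes 82.1%, 19.9%, 80.7% and 63.0% were called higher there. In limma on RPKM they were 7 in cKit and 0 in Thy1 with either pseudocount, and 1 for the difference with a pseudocount of 1. All 7 in cKit were lower, as were 19.8% and 19.0% of all genes with pseudocounts of 0.1 and 1. The 1 for the difference was lower, as were 2.44% of all genes. The control populations differed in 2 members with DESeq2 size factors, with no filter on low counts and with only the 4 libraries fitted. Of all genes, 9.23%, 8.26% and 9.60% were then higher and 10.4%, 8.88% and 11.3% lower. Thy1 had 2 with only the 4 libraries fitted, and the difference had 1 with the largest entry per symbol. Of all genes, 3.01% were then higher and 3.05% lower in Thy1, and 2.23% were lower for the difference. Leaving out 1 library at a time gave 3 to 4 in cKit, 0 to 1 in Thy1, 1 to 2 between controls, 3 to 5 between dKO populations and 1 to 2 for the difference.

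Signs turned with scaling on germ cell markers for Bcorl1 in Thy1 (0.12) and in cKit for Bcorl1 (1.21), Kdm2b (1.08), L3mbtl2 (0.19), Pcgf1 (1.27), Pcgf3 (1.55) and Pcgf6 (1.09). They also turned between control populations for Kdm2b (0.19) and L3mbtl2 (0.36), between dKO populations for Kdm2b (0.82), L3mbtl2 (0.67) and Pcgf5 (0.39), and in the difference for Bcor (1.16), Kdm2b (0.64) and L3mbtl2 (0.31). Between control populations, limma with pseudocounts of 0.1 and 1 gave 0.10 and 0.075 for Kdm2b and 0.135 and 0.11 for L3mbtl2, and the largest entry gave 0.46 for Kdm2b. Without 1 library, the range crossed 0 for Bcorl1 in Thy1 (-0.45 to 0.10), Pcgf3 in cKit (-0.17 to 0.068), and Pcgf5 (-0.089 to 0.28) and Yaf2 (-0.041 to 0.30) between controls. With germ cell scaling the turns come with that shift of all genes. For the other turns the cause was not tested.

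Over all genes, 93 were called in Thy1 dKO with edgeR, against 330 with DESeq2, 12 and 16 with limma, 563 with no filter, 9 with the largest entry, 870 with only the 4 libraries, 59 with germ cell scaling and 3 to 400 without 1 library. In cKit dKO 1965 were higher and 2294 lower, against 1278 and 3007 by library totals, 12243 and 64 with germ cell scaling, and 371 and 3727 with limma. The number fell to 2386 without cKit control replicate 1. The difference had 883 genes, against 9423 with germ cell scaling, 473 with limma and a pseudocount of 1, 1490 with no filter, 433 with the largest entry and 219 to 1268 without 1 library. Between the dKO populations 5190 were called, against 12168 with germ cell scaling and 3101 without Thy1 dKO replicate 1, and between controls 2939, against 1717 without Thy1 control replicate 1.

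The groups share replicate numbers, but same-numbered samples did not deviate together (r = -0.0453 to 0.0522), so the numbers are not taken as pairs. With the replicate block 1 member was called in Thy1, 3 in cKit, 1 between controls, 4 between dKO populations and 2 for the difference, and 157 genes in all were called in Thy1. With 2 libraries a group, the simulated data had 58 of 100 genes called in cKit and 66 of 100 in Thy1 at a log2 change of 1, so that smaller changes of the members can be missed.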
